A study of Mus musculus with 12 samples.

Results

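The genes described here make, move, break down and sense the inhibitory transmitter GABA: Gad1, Gad2, Slc32a1, Slc6a11, Abat, Gabbr1, Gabbr2, Gphn and Slc12a5. They were chosen by symbol, as 9 of the 14909 genes in a table of read counts, and all 9 were among the 14274 genes with enough counts to be tested. The counts came from bulk RNA sequencing of the frontal cortex of Upf3b-null (KO) and wild-type (WT) mice, both labelled C57BL/6, to ask which genes differ in level when Upf3b is absent. Upf3b is an X-linked gene whose protein acts in nonsense-mediated mRNA decay, the pathway that degrades transcripts with premature stop codons. There were 5 KO libraries (KO 1 to 4 and KO 6) and 7 WT libraries (WT 1 to 7), 1 per mouse, with no treatment. The labels used here do not say the age or sex of the mice or how the null allele was made.

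GABA is made from glutamate in inhibitory neurons by the glutamate decarboxylases that Gad1 and Gad2 encode, and is packed into synaptic vesicles by the transporter that Slc32a1 encodes. After release it is taken up by plasma membrane transporters, among them the product of Slc6a11, which sits mainly on astrocytes, and is broken down by the mitochondrial transaminase that Abat encodes. GABA acts quickly on GABA-A receptor channels, which gephyrin (Gphn) anchors at inhibitory synapses, and slowly on GABA-B receptors, G-protein-coupled dimers of the Gabbr1 and Gabbr2 products. The potassium-chloride cotransporter encoded by Slc12a5 keeps chloride low in mature neurons, so that GABA-A channels inhibit.

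Gad1, Gad2 and Slc32a1 mark inhibitory neurons. The RefSeq promoter windows of these 3 genes are shown because Gad2 and Slc32a1 moved together over the libraries, as described below, and Gad1 makes the same product as Gad2. The windows are in build GRCm38.p6 on the plus strand, and run from 250 bases before to 50 bases after a RefSeq start. Capitals mark the GC box GGGCGG or its reverse complement CCGCCC. The windows lie at chr2:70561879-70562178 for Gad1, chr2:22622077-22622376 for Gad2 and chr2:158610508-158610807 for Slc32a1.
Gad1: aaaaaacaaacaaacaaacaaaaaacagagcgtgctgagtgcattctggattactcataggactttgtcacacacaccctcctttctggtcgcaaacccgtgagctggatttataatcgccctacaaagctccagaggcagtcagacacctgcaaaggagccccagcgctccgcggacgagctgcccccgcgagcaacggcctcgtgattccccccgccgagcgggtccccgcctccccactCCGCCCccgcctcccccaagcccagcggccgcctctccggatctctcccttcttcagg
Gad2: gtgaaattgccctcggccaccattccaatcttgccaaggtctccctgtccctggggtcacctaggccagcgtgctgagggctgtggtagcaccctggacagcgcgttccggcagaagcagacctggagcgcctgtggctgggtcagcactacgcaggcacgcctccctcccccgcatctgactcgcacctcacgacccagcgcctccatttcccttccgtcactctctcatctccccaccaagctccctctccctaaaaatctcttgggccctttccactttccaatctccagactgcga
Slc32a1: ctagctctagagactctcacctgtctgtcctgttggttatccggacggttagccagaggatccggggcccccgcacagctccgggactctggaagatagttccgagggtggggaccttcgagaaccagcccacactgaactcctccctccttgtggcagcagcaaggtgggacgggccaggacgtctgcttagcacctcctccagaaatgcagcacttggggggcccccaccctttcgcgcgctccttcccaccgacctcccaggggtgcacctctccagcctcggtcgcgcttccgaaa
The Gad1 window holds 1 GC box and the Gad2 and Slc32a1 windows hold 0, while 35.7% of all 32851 RefSeq windows of this length hold at least 1. The TATA box (TATAAA or its reverse complement TTTATA) occurs in the Gad1 window, in neither of the others and in 13.6% of all windows. The homeodomain motif TAATTA is in none of the 3, against 5.29% of all windows. The windows are rich in CpG, with 21 in Gad1, 14 in Gad2 and 17 in Slc32a1, against a median of 7 over all windows. Window sequences were found for 8 of the 9 genes, and the other 5 with one had 1 to 4 GC boxes per window.

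The genotype labels held for Upf3b, at 2.76 ± 0.877 CPM in KO libraries (SD, n = 5) and 38.3 ± 2.48 CPM in WT libraries (SD, n = 7), where CPM is the count scaled to a common library size with TMM factors. KO libraries were mostly deeper, with totals of 4990643 to 6617759 counts, against 4684039 to 5425774 in WT libraries. Fold changes followed how densely a gene was counted: with all tested genes that had a length split into 10 equal bins by mean count per exonic base, the log2 fold change of KO over WT had a median of 0.25 in the sparsest bin and -0.18 in the densest. Of the 9 GABA genes, 4 (Gad1, Abat, Gabbr1 and Slc12a5) were in the densest bin, 4 (Gad2, Slc32a1, Slc6a11 and Gabbr2) in the ninth and Gphn in the eighth. Each gene is therefore given with 2 fits of edgeR's quasi-likelihood test, on the counts as deposited and with density offsets, which remove each library's smooth trend of level with count density and with it any true shift shared by densely counted genes. KO 2 and WT 4 stood apart from the other libraries of their groups in several of these genes, so values without both are given where they matter. In bulk tissue fewer cells of a type and less RNA per cell cannot be told apart.

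**Figure D1:**
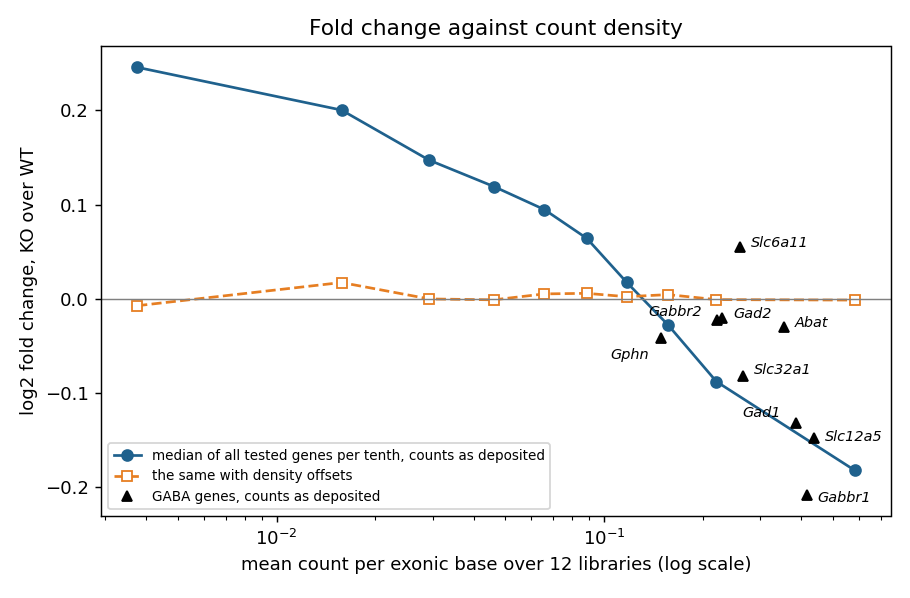
Log2 fold change of KO over WT (vertical axis) against the mean count per exonic base over the 12 libraries (horizontal axis, log scale). Circles join the medians of all tested genes in 10 bins of rising density, from 0.25 to -0.18, open squares give the same medians with density offsets, all close to 0, and triangles are the 9 GABA genes, which all lie in the 3 densest bins.

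Of the 9 genes 2, Gad1 and Gabbr1, were lower in KO at an adjusted p under 0.05 on the counts as deposited, and none was higher. Over all tested genes 14.4% were called lower and 15.3% higher, 29.7% in all. In the densest bin of genes, which holds both called genes, 67.5% of all genes were called lower in KO, against 2 of the 4 GABA genes there. In the next bin 30.9% were called lower, against 0 of 4. With density offsets no GABA gene was called in either direction, while 8.04% of all tested genes were lower and 8.39% higher, 16.4% in all. None of the 9 had an unadjusted p under 0.05 in that fit, and Abat and Slc6a11 had the smallest, both with a positive fold change. The median log2 fold change of the 9 was -0.041 on the counts as deposited, against 0.034 over all tested genes, and 0.059 with density offsets, against 0.0016. Every one of the 9 genes had overlapping KO and WT libraries in CPM, while 10.6% of all tested genes separated the groups, 5.84% with every KO library above every WT library and 4.80% with every one below. With the density trend removed the 9 genes overlapped as well, while 8.5% of all tested genes did not, 4.32% with KO above and 4.19% with KO below.

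**Figure D2:**
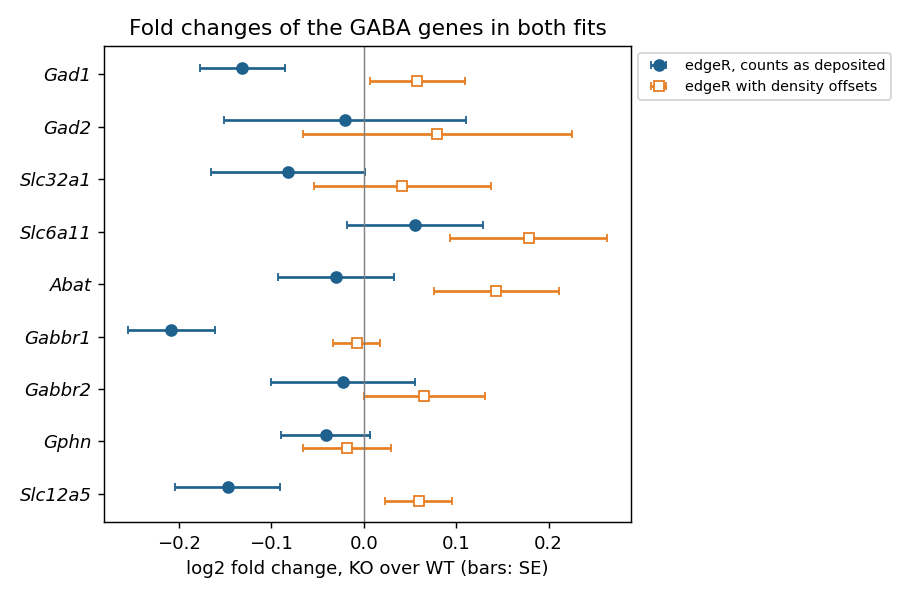
Log2 fold changes of KO over WT with SE for each of the 9 genes. Filled circles are from edgeR on the counts as deposited and open squares from edgeR with density offsets; Gad1 lies at -0.13 and 0.058 and Gabbr1 at -0.21 and -0.0078, while Slc6a11 lies at 0.055 and 0.18.

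Gad1 encodes the decarboxylase that makes most of the GABA in neuron cell bodies and lies on chromosome 2 at 70553072 to 70602014 of GRCm38 (mm10), on the plus strand, with 18 merged exons over 3540 bases. Its level was 258, 257, 228, 234 and 233 CPM in KO 1, KO 2, KO 3, KO 4 and KO 6, and ran from 249 through a median of 261 to 283 CPM in WT libraries. KO 3, KO 4 and KO 6 lay below every WT library, and KO 1 and KO 2 lay inside the WT range. Gad1 fell in KO by 0.13 ± 0.046 on the log2 scale (SE; edgeR adjusted p = 0.0421). With density offsets the value was 0.058 ± 0.051 (edgeR adjusted p = 0.474), of the opposite sign. The call rested on few libraries: leaving out 1 library gave adjusted p values from edgeR between 0.0171 and 0.113, and it was lost in 8 of the 12 such fits, those without KO 3, KO 4, KO 6, WT 1, WT 3, WT 5, WT 6 or WT 7.

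Gad2 encodes the second decarboxylase, which is enriched at synaptic terminals, at chromosome 2, 22622205 to 22693874, on the plus strand, with 5744 exonic bases. Its level was 224, 324, 204, 234 and 226 CPM in KO 1, KO 2, KO 3, KO 4 and KO 6, against 192 to 344 CPM with a median of 241 in WT libraries. The highest KO library was KO 2 and the highest WT library was WT 4, each far above the rest of its group. The group means were 242 ± 47.1 CPM in KO (SD, n = 5) and 246 ± 48.6 CPM in WT (SD, n = 7). The log2 fold change was -0.020 (edgeR adjusted p = 0.922) with a wide 95% interval from -0.30 to 0.26. It was -0.15 without KO 2, 0.067 without WT 4 and -0.060 without both, and was not called in any of these fits.

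Slc32a1, which encodes the vesicular transporter that loads GABA and glycine, lies at chromosome 2, 158610767 to 158615748, on the plus strand, and has 2797 exonic bases in 2 merged exons. Of these, 697 bases are shared with the opposite-strand gene Gm14205, which is not in the count table, and whether strand was used in the counting is not given in the sources used here. Its level was 133, 152, 121, 125 and 138 CPM in KO 1, KO 2, KO 3, KO 4 and KO 6, against 120 to 177 CPM with a median of 134 in WT libraries. As for Gad2, KO 2 and WT 4 were the highest of their groups, and the groups overlapped. The log2 fold change was -0.082 ± 0.083 on the counts as deposited (SE; edgeR adjusted p = 0.483) and 0.042 ± 0.096 with density offsets (edgeR adjusted p = 0.810).

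**Figure D3:**
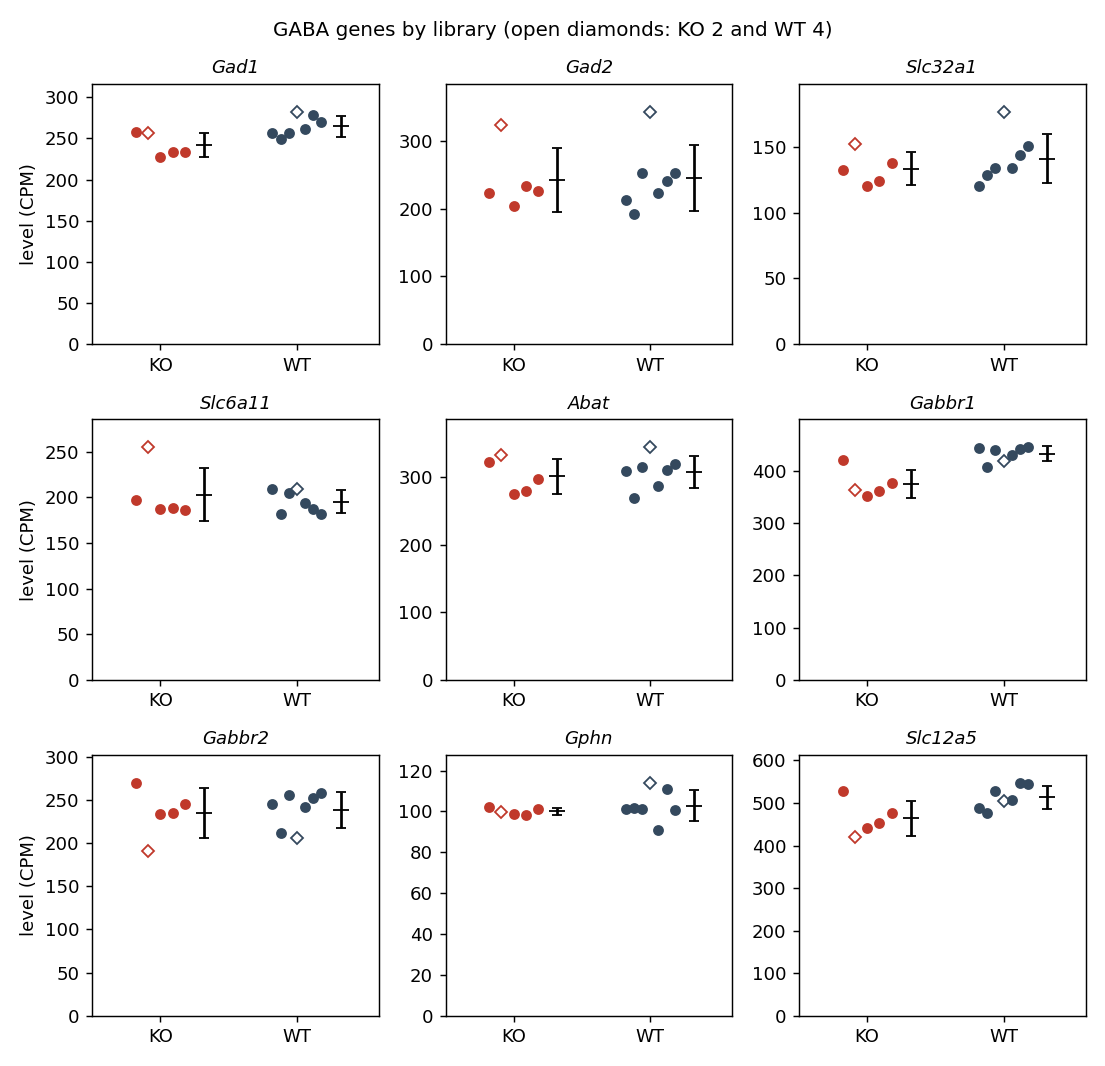
Level in CPM (vertical axes, from 0) of the 9 genes in each library, KO left and WT right, with group mean and SD beside the points. Open diamonds are KO 2 and WT 4, which lie above the rest of their groups in Gad2 and Slc32a1 and below them in Gabbr2.

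Slc6a11, a GABA transporter of astrocytes, lies at chromosome 6, 114131241 to 114249952, on the plus strand. It was the one gene of the 9 with a positive fold change on the counts as deposited, at 0.055 ± 0.074 on the log2 scale (SE; edgeR adjusted p = 0.604). Its level was 198, 255, 188, 189 and 186 CPM in KO 1, KO 2, KO 3, KO 4 and KO 6, against 181 to 209 CPM with a median of 194 in WT libraries. KO 2 alone lay above the WT range, and the other KO libraries lay inside it. With density offsets the fold change was 0.18 ± 0.085 (SE; edgeR adjusted p = 0.164), and 0.079 ± 0.039 with offsets when KO 2 and WT 4 were left out (edgeR adjusted p = 0.183). On the counts as deposited its sign turned without KO 2 alone, to -0.041.

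Abat, which encodes the transaminase that degrades GABA, lies at chromosome 16, 8513429 to 8621568, on the plus strand. Its level was 322, 333, 275, 279 and 298 CPM in KO 1, KO 2, KO 3, KO 4 and KO 6, against 269 to 344 CPM with a median of 310 in WT libraries, so every KO library lay inside the WT range. The log2 fold change was -0.030 ± 0.063 on the counts as deposited (SE; edgeR adjusted p = 0.749). With density offsets it was 0.14 ± 0.068 (edgeR adjusted p = 0.161), with a 95% interval from -0.0011 to 0.29, and without KO 2 and WT 4 in that fit it was 0.12 ± 0.042 (edgeR adjusted p = 0.0676).

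Of the genes of the GABA-B receptor Gabbr1 was called and Gabbr2 was not. Gabbr1 encodes the subunit that binds GABA and lies at chromosome 17, 37045966 to 37075067, on the plus strand, with 5248 exonic bases. Its level was 421, 364, 352, 363 and 377 CPM in KO 1, KO 2, KO 3, KO 4 and KO 6, against 407 to 446 CPM with a median of 441 in WT libraries. In 4 of the 5 KO libraries it lay below every WT library, and KO 1, whose total of 4990643 counts is the only KO total inside the range of WT totals, lay inside the WT range. Gabbr1 fell in KO by 0.21 ± 0.047 on the log2 scale (SE; edgeR adjusted p = 0.00447), and the call held in all 12 fits that left out 1 library, with adjusted p values from 1.71e-04 to 0.0175. With density offsets the value was -0.0078 ± 0.025 (SE; edgeR adjusted p = 0.869), with a 95% interval from -0.062 to 0.046. Adding each library's log2 total to the fit gave -0.031 ± 0.040 (edgeR adjusted p = 0.788).

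The raw counts of Gabbr1 were higher in deeper libraries, but by less than in proportion to the totals. They were 2058 to 2380 in KO libraries and 2018 to 2248 in WT libraries, with the lowest in the shallowest library (WT 5) and the highest in the deepest (KO 3). Its highest over lowest count was 1.18, against 1.41 for the library totals. The same ratio was 1.28 for Slc12a5, 1.38 for Gad1 and 1.6 for Abat, the other genes in the densest bin. It was 1.44 for Gabbr2, 1.71 for Slc32a1, 1.93 for Slc6a11 and 2.05 for Gad2 in the next bin, and 1.57 for Gphn. The ratios did not follow density gene by gene, with Abat above Gphn and Gabbr2. The highest counts of Gad1, Gad2, Slc32a1, Slc6a11 and Abat were those of KO 2, and the lowest of Gabbr2 was that of WT 4. For Abat the KO 2 count was 2141 and the next highest was 1857, in KO 3. Its place above Gphn and Gabbr2 thus rests on KO 2.

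Gabbr2 encodes the subunit that couples the receptor to G proteins and lies at chromosome 4, 46662305 to 46991873, on the minus strand. Its level was 270, 191, 235, 235 and 246 CPM in KO 1, KO 2, KO 3, KO 4 and KO 6, against 206 to 258 CPM with a median of 245 in WT libraries. KO 1 lay above and KO 2 below the WT range, and WT 4 was the lowest WT library. The log2 fold change was -0.022 with a 95% interval from -0.19 to 0.14 on the counts as deposited, and 0.066 with an interval from -0.074 to 0.21 with density offsets.

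Gphn encodes gephyrin, which anchors glycine receptors and GABA-A receptors and also takes part in making the molybdenum cofactor. It lies at chromosome 12, 78226379 to 78684772, on the plus strand, and 147 of its 3678 exonic bases are shared with the opposite-strand gene Gm48226. Its level was nearly constant in KO, at 102, 99.6, 98.8, 98.5 and 101 CPM in KO 1, KO 2, KO 3, KO 4 and KO 6, and ran from 90.9 through a median of 101 to 114 CPM in WT libraries. The log2 fold change was -0.041 ± 0.048 as deposited and -0.018 ± 0.048 with density offsets (SE; edgeR adjusted p = 0.549 and 0.835), so the fits differed least for this gene.

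Slc12a5 lies at chromosome 2, 164960802 to 164999731, on the plus strand, with 6028 exonic bases. Its level was 529, 421, 442, 452 and 477 CPM in KO 1, KO 2, KO 3, KO 4 and KO 6, against 476 to 547 CPM with a median of 507 in WT libraries. KO 2, KO 3 and KO 4 lay below every WT library, KO 6 just inside the WT range and KO 1 near its top. The log2 fold change of -0.15 ± 0.057 (SE) missed the threshold with edgeR (adjusted p = 0.0617) and passed it with DESeq2's Wald test (adjusted p = 0.0179). With density offsets it was 0.059 ± 0.036 (SE; edgeR adjusted p = 0.285), and with the log2 total in the fit 0.039 ± 0.065 (edgeR adjusted p = 0.839).

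Per length of exon, levels of the 9 genes spanned a range from 77.0 ± 6.86 CPM per kilobase for Slc12a5 to 27.2 ± 0.446 for Gphn in KO (SD, n = 5), and from 85.2 ± 4.51 to 28.0 ± 2.04 in WT (SD, n = 7). In KO the order was Slc12a5, Gabbr1, Gad1, Abat, Slc6a11, Slc32a1, Gad2, Gabbr2 and Gphn. Only the steps from Abat to Slc6a11 (65.0 and 49.1 CPM per kilobase) and from Gabbr2 to Gphn (40.9 and 27.2) were larger than the summed SDs of the neighbours. In WT the order was the same except that Slc32a1 stood above Slc6a11. There the step from Gabbr1 to Gad1 (82.6 and 74.8 CPM per kilobase) also passed the summed SDs. Gad1 was above Gad2 per length in both groups, at 68.3 ± 4.07 against 42.2 ± 8.2 CPM per kilobase in KO (SD, n = 5) and 74.8 ± 3.57 against 42.8 ± 8.45 in WT (SD, n = 7).

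Ratios of 2 genes within a library need no library scaling; 3 are given here, compared with exact two-sided permutation tests over the 792 arrangements of the libraries. Gabbr1 over Gabbr2 was 1.56, 1.91, 1.501, 1.54 and 1.53 in KO 1, KO 2, KO 3, KO 4 and KO 6, against 1.72 to 2.04 in WT libraries, with KO 2 alone inside the WT range. Its mean log2 ratio differed between KO and WT by -0.18 (exact permutation p = 0.0152, adjusted p = 0.0471 over the 4 ratios computed). Without KO 2 and WT 4, a setting not planned beforehand, it differed by -0.22 (exact permutation p = 0.00952, the smallest possible there). The groups did not overlap in that setting, which follows from leaving out KO 2, so it is no separate evidence. Slc12a5 over Slc12a2, the chloride exporter gene over the importer gene, differed by -0.18 (exact permutation p = 0.0354; adjusted p = 0.0471). That call rested on few libraries: leaving out KO 2, KO 3, KO 4, WT 1, WT 3, WT 6 or WT 7 ended it, with -0.097 without KO 2, and without both KO 2 and WT 4 it was -0.11 (exact permutation p = 0.0571). Gad1 over Gad2 differed by -0.11 (exact permutation p = 0.371). In both ratios that passed, the gene counted more densely was the one that was lower in KO relative to its partner. After removal of the density trend the 3 differences were -0.072 for Gabbr1 over Gabbr2, 0.064 for Slc12a5 over Slc12a2 and -0.021 for Gad1 over Gad2, with exact permutation p values between 0.328 and 0.861.

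Striatal spiny neurons also use GABA, and the levels of some of these genes followed markers of that cell type over the libraries. The summed level of 11 striatal markers ran from 1089 to 1779 CPM in KO, with KO 2 highest, and from 923 to 2167 CPM in WT, with WT 4 highest. None of the 11 was at 0 in all libraries, none was called between the groups in either fit, and several are also expressed in cortex. Drd1, a dopamine receptor gene of striatal neurons, was at 133 CPM in KO 2 and 168 CPM in WT 4, against 68.0 to 85.1 CPM in the other KO and 47.7 to 101 CPM in the other WT libraries. The 2 members of this list with the smallest p, Ppp1r1b and Penk, had log2 fold changes of -0.17 ± 0.11 and -0.17 ± 0.13 (SE; edgeR adjusted p = 0.249 and 0.350). Most of the list had the other sign. As deposited 3 of the 11 were negative, with a median of 0.11, against 0.034 over all tested genes. With density offsets 0 were negative, with a median of 0.14, against 0.0016.

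The 9 genes were compared with the striatal sum across the 12 libraries after the values were seen. By Pearson's r, Slc32a1 and Gad2 followed it most closely of the 9. By Spearman's rho Abat was the closest, with Slc32a1 and Gad2 next. For Slc32a1 Pearson's r was 0.909 (permutation p = 9e-05, adjusted 4.05e-04 over 9 genes) and Spearman's rho 0.790 (permutation p = 0.00363, adjusted 0.0146), and for Gad2 r was 0.880 (permutation p = 7e-05, adjusted 4.05e-04) and rho 0.769 (permutation p = 0.00486, adjusted 0.0146). For Abat r was 0.792 (permutation p = 0.00194, adjusted 0.00582) and rho 0.811 (permutation p = 0.00219, adjusted 0.0146). Without WT 4 and KO 2, the libraries farthest from the median sum, r was 0.777, 0.749 and 0.600 for Slc32a1, Gad2 and Abat, and within the 7 WT libraries alone it was 0.947, 0.897 and 0.844. The other 6 genes had r between -0.30 and 0.642 and adjusted p values above the threshold. Gad1 had r = 0.556 (permutation p = 0.0602, adjusted 0.108) and rho = 0.524 (permutation p = 0.0847, adjusted 0.190) over all libraries, with r = 0.365 without WT 4 and KO 2 and 0.861 within WT, and Slc6a11 r = 0.357, which was -0.372 without WT 4 and KO 2. With the log2 striatal sum as a covariate, also added after the values were seen, the SE of the fold change was 0.068 for Gad2, against 0.13 without it, and 0.042 for Slc32a1, against 0.083, and neither gene was called (edgeR adjusted p = 0.564 and 0.0645). In that fit Gad1 and Gabbr1 kept their calls, at -0.14 ± 0.038 and -0.21 ± 0.048 (SE; edgeR adjusted p = 0.00904 and 0.00313), and Slc12a5 passed as well, at -0.15 ± 0.056 (edgeR adjusted p = 0.0444). More of all tested genes were called there too, 2290 lower and 2783 higher, against 2050 and 2183 without the sum. With density offsets and the striatal sum together the calls of Gad1, Gabbr1 and Slc12a5 were absent and Abat was higher in KO, at 0.13 ± 0.037 (edgeR adjusted p = 0.0248). Of all tested genes 1430 were lower and 1716 higher in that fit, against 1148 and 1197 with offsets alone.

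**Figure D4:**
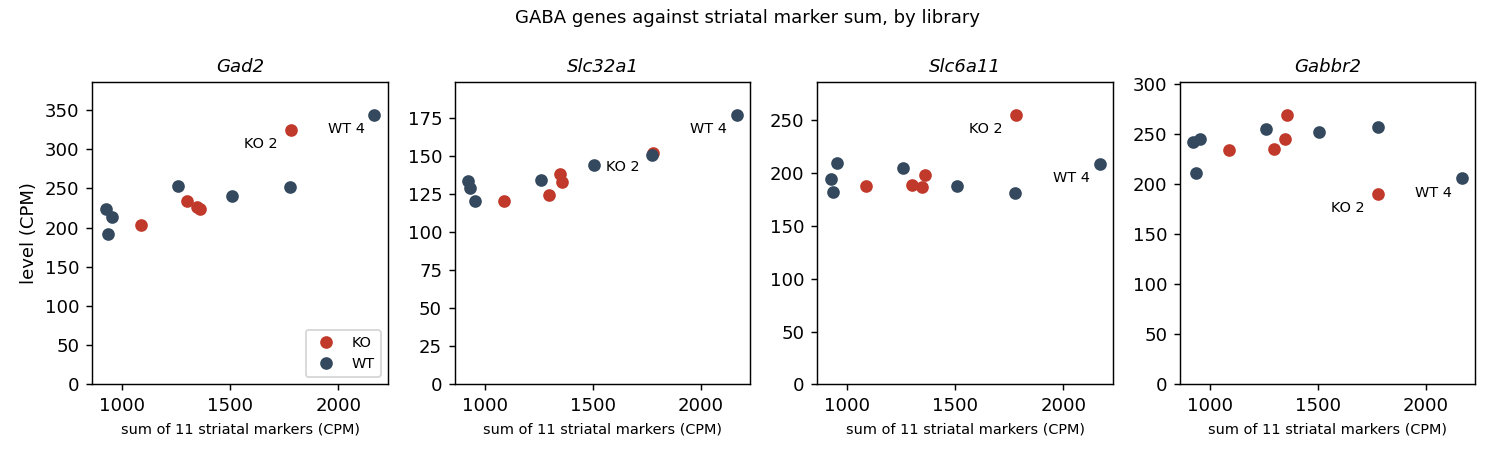
Level in CPM of Gad2, Slc32a1, Slc6a11 and Gabbr2 (vertical axes, from 0) against the summed CPM of 11 striatal markers (horizontal axes), 1 point per library, KO red and WT dark blue. Gad2 and Slc32a1 are higher where the marker sum is higher, in both groups, while KO 2 stands alone in Slc6a11 and KO 2 and WT 4 are low in Gabbr2.

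Cortical interneurons make most of the GABA in cortex. Of 24 markers tested, 2 (8.33%) were called higher and 4 (16.7%) lower in KO, against 15.3% and 14.4% of all tested genes. With density offsets 1 (4.17%) was higher and 2 (8.33%) were lower, against 8.39% and 8.04%. Their summed level was 1273 to 1326 CPM in KO and 1220 to 1374 CPM in WT, with none at 0 in all libraries. The median log2 fold change of the list was 0.063, against 0.034 over all tested genes. Cort, which encodes the neuropeptide cortistatin, and Npy, which encodes neuropeptide Y, fell in both fits, and Adarb2, an RNA-editing family gene of some interneurons, rose in both. Cort was at 5.54 ± 0.511 CPM in KO (SD, n = 5) and 13.2 ± 1.87 CPM in WT (SD, n = 7). Sst, which encodes somatostatin, fell by 0.34 ± 0.061 on the log2 scale (SE; edgeR adjusted p = 0.00153) and was at -0.11 with density offsets (edgeR adjusted p = 0.0741).

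The sum of the interneuron markers hides opposite differences within the list in KO 2 and WT 4, the libraries with the most Gad2 and Slc32a1. These 2 libraries were the lowest of their groups in 8 of the 24 markers (Pvalb, Vip, Npy, Lamp5, Npas1, Maf, Satb1 and Cort). They were the highest in 7 (Lhx6, Dlx5, Dlx6os1, Adarb2, Calb2, Reln and Tac1), a count made after the values were seen. The share of all tested genes with either pattern is not given here. Over all tested genes, deviations of KO 2 from its group mean correlated best with those of WT 4 (r = 0.518). Whether the pattern is particular to these markers was not tested. Pvalb, which encodes the calcium-binding protein parvalbumin, was at 40.6 CPM in KO 2 and 48.5 to 54.4 CPM in the other KO libraries, and at 31.9 CPM in WT 4 and 47.7 to 55.9 CPM in the other WT libraries. Calb2, which encodes calretinin, was at 63.8 CPM in KO 2 and 15.1 to 21.2 CPM in the other KO libraries, and at 42.0 CPM in WT 4 and 19.3 to 27.1 CPM in the other WT libraries. High Gad2 and Slc32a1 in these libraries thus stood beside low Pvalb and high Calb2 and striatal markers, and the part of each in the other was not tested.

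Other cell type markers had the following values, to be read against 14.4% of all tested genes called lower and 15.3% higher. With density offsets these shares were 8.04% and 8.39%. The part of these markers in the values above was not tested. Of 14 astrocyte markers 5 were lower in KO and none higher, and with density offsets 2 were lower, Sox9 (-0.51) and Aldoc (-0.12); their sum was 2917 to 3407 CPM in KO and 3156 to 3735 CPM in WT. Slc1a3 and Slc1a2, the glutamate transporter genes of astrocytes, were lower as deposited only. Of 14 excitatory neuron markers 3, Nrgn, Camk2a and Slc17a7, were lower as deposited and none with offsets, and the sum ran from 1845 CPM in KO 2 to 2475 in KO and from 2132 CPM in WT 4 to 2502 in WT. The microglial sum was 582 to 619 CPM in KO and 658 to 819 CPM in WT, with no overlap; 7 of 10 markers were lower, and 5 with offsets, among them Fcrls and P2ry12, while C1qa was lower as deposited only. Of 12 endothelial and mural markers Tek, Flt1, Kdr and Pecam1 were higher as deposited and none with offsets, where 1 was lower. Of 10 oligodendrocyte markers 3, among them Cnp and Mbp, were lower as deposited and none with offsets. Sums were 470 to 529 CPM in KO and 423 to 518 CPM in WT for endothelial and mural markers, and 1597 to 1868 CPM in KO and 1755 to 2023 CPM in WT for oligodendrocyte markers. No marker of these lists was at 0 in all libraries.

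The rest of the pathway, 85 other genes in 5 lists, had 81 tested members. Of these 8 were higher and 20 lower in KO on the counts as deposited, and 9 higher and 2 lower with density offsets; 4 were higher and 1 lower in both fits. As deposited these are 9.88% higher and 24.7% lower, against 15.3% and 14.4% of all tested genes, and with offsets 11.1% and 2.47%, against 8.39% and 8.04%. Of the 20 lower genes 17 were among the 22 in the densest bin, where 67.5% of all genes were lower. The median log2 fold change was -0.0071, against 0.034 over all tested genes, and 0.011 with density offsets, against 0.0016. The 5 genes called in both fits were Cacna1b, Igsf9b, Iqsec3, Slc4a8 and App, of which Iqsec3 and App were picked out after their values were seen.

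Among 16 genes of GABA synthesis, transport and breakdown, 4 (25%) fell and 1 (6.25%) rose as deposited, against 14.4% and 15.3% of all tested genes. Those that fell were the 4 in the densest bin, where 67.5% of all genes were lower. Glul, the glutamine synthetase of astrocytes, was at 304 ± 34.9 CPM in KO (SD, n = 5) and 377 ± 17.0 CPM in WT (SD, n = 7), and fell by 0.31 ± 0.061 on the log2 scale (SE; edgeR adjusted p = 0.00224). Got2 and Glud1, mitochondrial enzymes of glutamate metabolism, fell by 0.18 and 0.23 (edgeR adjusted p = 0.00667 and 0.00762). Slc38a5, a glutamine transporter gene, rose by 0.50 ± 0.13 (SE; edgeR adjusted p = 0.0126) and was the only one of the 5 whose groups did not overlap. None of these 5 passed with density offsets, where Glul was at -0.036. Aldh5a1, which encodes the enzyme after Abat in GABA breakdown, was at 149 ± 10.8 CPM in KO (SD, n = 5) and 143 ± 9.0 CPM in WT (SD, n = 7; edgeR adjusted p = 0.424).

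Among 25 accessory proteins and effectors of GABA-B receptors, 10 (40%) fell and 2 (8%) rose as deposited, against 14.4% and 15.3% of all tested genes. With density offsets 1 (4%) fell and 3 (12%) rose, against 8.04% and 8.39%. The list is densely counted: 11 of the 25 genes were in the densest bin, where 8 of them were lower, against 67.5% of all genes there, and 5 were in the next bin, where 2 were lower, against 30.9%. The G-protein subunit genes Gnai1, Gnb1 and Gnai2 fell by 0.26, 0.25 and 0.18 on the log2 scale (edgeR adjusted p = 0.00203, 0.00362 and 0.00374), and were at -0.10, -0.025 and 0.0057 with offsets, where none passed. Cacna1b, which encodes the pore of the N-type calcium channel that GABA-B receptors inhibit at terminals, was at 264 ± 4.56 CPM in KO (SD, n = 5) and 217 ± 19.0 CPM in WT (SD, n = 7), with every KO library above every WT library. It rose by 0.28 in both fits, with an SE of 0.054 as deposited and 0.053 with offsets (edgeR adjusted p = 0.00206 as deposited and 0.00326 with offsets). App, whose protein binds the Gabbr1 product outside the cell, fell in both fits, at -0.29 as deposited and -0.15 with offsets (edgeR adjusted p = 0.00435 and 0.0245).

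Among 15 gephyrin partners at inhibitory synapses, 4 (26.7%) fell and 2 (13.3%) rose as deposited, against 14.4% and 15.3% of all tested genes. With offsets 1 (6.67%) fell and 3 (20%) rose, against 8.04% and 8.39%. In the densest bin were 5 of the 15, of which 3 were lower, against 67.5% of all genes there. Igsf9b, an adhesion protein gene of inhibitory synapses, was at 44.0 ± 2.25 CPM in KO (SD, n = 5) and 27.1 ± 7.93 CPM in WT (SD, n = 7), without overlap, and rose by 0.71 ± 0.17 as deposited and 0.59 ± 0.17 with offsets (SE; edgeR adjusted p = 0.00597 and 0.0268). Iqsec3, an exchange factor that binds gephyrin, rose by 0.22 ± 0.053 and 0.30 ± 0.046 in the 2 fits (SE; edgeR adjusted p = 0.00648 and 9.53e-04). Dynll2, a dynein light chain gene, and Gabarapl1 and Gabarap, which encode small GABA-A receptor-binding proteins of the autophagy family, fell by 0.30, 0.27 and 0.21 as deposited and did not pass with offsets.

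Of 6 enzymes of the molybdenum cofactor pathway, to which gephyrin also belongs, 2 (33.3%) rose as deposited, against 15.3% of all tested genes. These were Xdh, by 0.69, and Suox, by 0.22 on the log2 scale, and none passed with offsets. Among 19 genes of neuronal chloride transport and its kinases 1 (5.26%) rose and 2 (10.5%) fell as deposited, against 15.3% and 14.4%. With offsets 2 (10.5%) rose and 0 fell, against 8.39% and 8.04%. Slc4a8, a sodium-driven chloride-bicarbonate exchanger gene, was at 257 ± 6.69 CPM in KO (SD, n = 5) and 222 ± 18.9 CPM in WT (SD, n = 7), without overlap, and rose by 0.21 as deposited and 0.18 with offsets (edgeR adjusted p = 0.0104 and 0.0330). Car2, a carbonic anhydrase gene, and Slc4a10, another bicarbonate exchanger gene, fell by 0.17 and 0.15 as deposited only. Slc12a2, the chloride importer gene that opposes Slc12a5, was at 125 ± 12 CPM in KO (SD, n = 5) and 122 ± 8.12 CPM in WT (SD, n = 7), with a log2 fold change of 0.037 (edgeR adjusted p = 0.683).

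The GABA-A receptor subunit genes, whose proteins gephyrin anchors, had 5 (38.5%) lower and 1 (7.69%) higher of 13 tested as deposited. Of all tested genes 14.4% were lower and 15.3% higher. With offsets 0 were lower and 2 (15.4%) higher, against 8.04% and 8.39% of all tested genes. The median log2 fold change was -0.099 as deposited, against 0.034 over all tested genes, and -0.018 with offsets, against 0.0016. In the densest bin were 6 of the 13, of which 3 were lower, against 67.5% of all genes there. Gabra2 rose by 0.51 as deposited and 0.40 with offsets (edgeR adjusted p = 0.00620 and 0.0294).

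The tested genes most like 3 of the members over the 12 libraries, by Pearson's r of log2 CPM after each group's mean was subtracted, were taken from 14273 others and are given as a description. For Gad1 they were H2-T24, Gprasp1 and Btaf1 (r = 0.908, 0.906 and 0.889), of which Gprasp1 alone stayed close after removal of the density trend (r = 0.942, against 0.353 and 0.464). For Gabbr1 they were Ncdn, Slc25a4 and Arf1 (r = 0.979, 0.977 and 0.976, and 0.760, 0.610 and 0.860 after removal of the trend). For Slc6a11 they were Tmem130, Tcf7l2 and Klhl5 (r = 0.927, 0.907 and 0.905), at 0.718, 0.720 and 0.712 without KO 2 and WT 4. Tcf7l2 encodes a transcription factor of Wnt signalling that is strongly expressed in thalamic neurons.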

How the data were processed

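Bulk RNA from the frontal cortex of 5 KO and 7 WT mice was sequenced. Each deposited value is a raw read count of 1 gene in 1 library, whole numbers listed under a RefSeq accession per the file header. The submitters' processing notes name STAR and mm10, with no role. Which counter was used, with what strand setting, and how duplicate reads were treated is not given in the sources used here. Reads shared with paralogs or antisense genes may thus be counted for either gene. Totals ran from 4684039 to 6617759 counts, and no libraries were merged, because each is labelled as its own mouse. WT 6 and WT 7, the most alike, gave a chi-square of 1.02 for each degree of freedom. Counting noise alone would give a value near 1, so this value does not show that they come from separate mice.

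All genes were fitted together with edgeR 4.0.16 in R 4.3.3 (filterByExpr by group, TMM, quasi-likelihood test, group as the only term, Benjamini-Hochberg adjustment at 0.05). SE is the fold change over the square root of the F statistic. Density offsets came from a lowess curve (span 0.3) per library of log2 CPM deviations, with a prior count of 0.5, against log2 mean count per exonic base. Exonic lengths were taken from GENCODE M21, by RefSeq accession for 14734 genes and by symbol for 123. Permutation tests over libraries were exact and two-sided, with a smallest possible p of 0.00253. Correlations used 100000 permutations in Python 3.11.15.

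The method was tested on simulated counts for KO against WT over 14207 genes, where 39% of 100 genes with a log2 change of 0.25 and 88% of 100 with 0.5 were called, and 0.0857% of unchanged genes. These simulated counts held no trend with count density, unlike the data, and were fitted without density offsets. The shares therefore do not give the rate of false or missed calls in either fit of the real counts. Other settings were DESeq2 1.42.0, limma-voom (limma 3.58.1), other filters, normalization, covariates, a replicate block and left-out libraries.

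The GABA genes and all lists were chosen with earlier results of these data known. All 9 GABA genes are named, with Slc12a2, Aldh5a1 and Upf3b; of each list, up to 4 called genes with the smallest p, or 2 as values where none was called; and the 3 genes most like Gad1, Slc6a11 and Gabbr1. Marker and receptor genes beyond that rule, such as Drd1, were chosen after their values were seen. Some genes that this rule names, and 1 ratio, are not reported here. Each library is labelled as 1 mouse, and nothing in the labels says whether they were littermates.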

Additional observations from a re-analysis of the deposited data

Results flagged for a closer look

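Of 26 sets examined, each 1 gene or ratio in 1 group, 4 had a library far outside the rest by Dixon's test, where chance gives about 1 in 20. Gad2 in KO 2 was at 324.2 CPM, against 203.8 to 233.5 CPM in the other KO libraries. Gad2 in WT 4 was at 344.1 CPM, against 192.1 to 252.6 CPM in the other WT libraries. Slc6a11 in KO 2 was at 255.0 CPM, against 186.2 to 197.8 CPM in the other KO libraries. The ratio of Gabbr1 over Gabbr2 in KO 2 was 1.91, against 1.501 to 1.56 in the other KO libraries. The library was KO 2 in all of these but the WT 4 value of Gad2.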

How the results depend on the processing

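On the counts as deposited 0 of the 9 GABA genes were higher and 2 lower in KO, 8 and 20 of the other pathway genes, and 2183 and 2050 of all tested genes. The GABA genes had 2 to 3 lower with DESeq2 size factors, DESeq2's Wald test, limma-voom, either other filter, the striatal sum as a covariate or without both KO 2 and WT 4; Slc12a5 was the one added, at -0.17 with DESeq2 size factors, -0.17 with the Wald test, -0.16 without a filter and -0.15 with the striatal sum. With density offsets 0 GABA genes, 2 other pathway genes and 1148 of all genes were lower, and 1197 of all genes higher. Without KO 2 and WT 4 in that fit 0, 2 and 1092 were lower, and 13 pathway genes and 1276 of all genes higher. With offsets and the striatal sum 0 GABA genes, 4 pathway genes and 1430 of all genes were lower, and 1, 16 and 1716 higher. With the library total as a covariate 0, 0 and 11 were lower and 1 pathway gene and 84 of all genes higher. At an adjusted p under 0.01 there were 1, 13 and 1145 lower, and 4 pathway genes and 1006 of all genes higher. KO 1, WT 2 and WT 4, the libraries of overlapping depth, gave 0 GABA, 0 pathway and 0 genes of all in either direction, Upf3b included (-4.03), so that fit says nothing on stability. Fold changes were negative for 8 of the 9 GABA genes as deposited, for 2 with offsets and for 4 at overlapping depth. Gad1, called as deposited, turned to 0.058 with offsets. It was at 0.039 with offsets without KO 2 and WT 4, and at 0.046 with offsets and the striatal sum. Abat turned to 0.14 with offsets, where it was not called, and to 0.13 with offsets and the striatal sum, where it was. Gabbr1, called as deposited, was at 0.027 at overlapping depth, where KO 1 was the only KO library, so its sign there does not show a reversal. The cause of these shifts was not tested.

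Leaving out 1 library gave 1 to 3 GABA genes lower and 0 higher, 16 to 26 pathway genes lower and 8 to 9 higher, and 1544 to 2467 of all genes lower and 1585 to 2420 higher. Upf3b ran from -3.92 to -3.64. The difference between groups in log2 ratio ran from -0.182 to -0.0255 for Gad1 over Gad2, -0.247 to -0.157 for Gabbr1 over Gabbr2, and -0.231 to -0.0969 for Slc12a5 over Slc12a2. Without KO 2 and WT 4 Slc12a5 over Slc12a2 was -0.111 (exact permutation p = 0.0571). With the density trend removed Gabbr1 over Gabbr2 was -0.0721 and Slc12a5 over Slc12a2 reversed to 0.0639.

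Mouse numbers did not pair the libraries: deviations of same-numbered KO and WT libraries correlated at -0.376 to 0.142 over 5 numbers, and none of the KO libraries correlated best with its own number. With the mouse number as a replicate block 1 GABA gene, 13 pathway genes and 1186 of all genes were lower, and 4 pathway genes and 1129 of all genes higher. With the block and density offsets 0, 0 and 230 were lower, 3 pathway genes and 360 of all genes higher, and Gad1 was at 0.053.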

Other observations

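Values of single members of the lists that belong in no comparison above are given here, all chosen after they were seen. Gabrb2, a GABA-A receptor subunit gene, was at -0.034 on the counts as deposited and 0.20 with density offsets (edgeR adjusted p = 0.638 and 0.0072). Kcnj9, which encodes a potassium channel subunit that GABA-B receptors open, was at 0.14 and 0.28 (edgeR adjusted p = 0.236 and 0.0189). Plcl1, a gene for a phospholipase-like GABA-A receptor partner, was at -0.082 and -0.19 (edgeR adjusted p = 0.242 and 0.0191). These 3 were called with density offsets only, as were Pianp, Lhfpl4 and Wnk2 among the pathway genes, at 0.088, 0.14 and 0.16 (edgeR adjusted p = 0.0326, 0.0320 and 0.0220).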
